A study of Mus musculus with 4 samples.

Results

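The members described here are 35 interferon-induced genes, chosen by name from the gene rows of 2 single-cell libraries of fetal liver blood progenitors. Of the 32285 genes listed in each library, 34 were members with a row; Mx1, which RefSeq lists as a transcribed pseudogene in the reference mouse strain, had none. Cells were lineage-negative, Sca1+ and c-Kit+ (LSK), a sort gate that holds blood stem cells and early multipotent progenitors, from livers of E17.5 mouse embryos. The WT library came from Bclaf1 f/f embryos, which carry the floxed allele without the recombinase, and the KO library from Vav-Cre:Bclaf1 f/f embryos, in which a Vav-driven Cre acts in blood cells. Each library was 1 pool of 10 embryos, so presence of Cre, loss of Bclaf1 and differences between pools cannot be told apart, and no test between genotypes was possible. RNA was read together with 6 antibody tags (CD150, CD48, CD34, CD201, CD117 and Sca1).

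Type I interferons bind the receptor made of Ifnar1 and Ifnar2, whose kinases Jak1 and Tyk2 activate Stat2. With Irf9 it is part of a complex that binds the interferon-stimulated response element in promoters, and type II interferon, through its own receptor, induces GTPase genes such as Gbp2 and Igtp. In blood stem and progenitor cells interferons are known to change cell cycle entry and to raise Sca1, the product of Ly6a, so a sort or gate on Sca1 is not independent of an interferon response.

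After filtering, the WT library held 5345 cells with a median of 22734 gene UMIs (unique molecular identifiers, 1 per captured transcript) and the KO library 2676 cells with a median of 34187.5. The 2 libraries shared 5 cell barcodes, 0.187% of the KO cells. Doublets were not removed, since the caller marked 0 WT and 7 KO cells. Bclaf1 itself had 218 CPM (counts per 1000000 gene UMIs) in WT and 75.8 CPM in KO, with a log2 ratio of -1.52. Intervals below are 95% and cover counting error only, not variation between embryos or pools. Summed erythroid markers were at 584 CPM in WT against 851 CPM in KO, granulocyte-monocyte markers at 801 and 977 CPM, and stem cell markers at 551 and 475 CPM. Of 10 macrophage markers, 9 were under 1 CPM in each library.

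The promoter sequences that carry the response element are shown first, because 17 of the 26 members with a promoter entry hold its letters. The response element was searched as TTTC, any 2 bases and again TTTC, on both strands with overlaps allowed, and occurred in the promoter window (250 bases before to 50 bases after the start, RefSeq, GRCm38.p6) of these 17 members, against 3.99% of all 27025 genes with an entry. The stretches below are read 5′ to 3′ along each gene, with the matches in capitals. They show a run of 3 overlapping matches in Isg15, the member with the lowest ratio in KO, paired matches in Ifit1, Ifit3 and Ifit3b, and single or overlapping matches in antiviral, membrane, GTPase and factor genes. The Isg15 stretch is chr4:156200865-156200906 (minus strand), Ifit1 chr19:34640775-34640823 (plus), Ifit3 chr19:34583363-34583426 (plus) and Ifit3b chr19:34607759-34607822 (plus). The Rsad2 stretch is chr12:26456553-26456582 (minus), Oas1a chr5:120907526-120907555 (minus), Bst2 chr8:71537577-71537612 (minus), Igtp chr11:58199512-58199541 (plus), Gbp7 chr3:142530273-142530302 (plus) and Stat2 chr10:128270266-128270295 (plus).
Isg15: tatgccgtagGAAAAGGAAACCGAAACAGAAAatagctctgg
Ifit1: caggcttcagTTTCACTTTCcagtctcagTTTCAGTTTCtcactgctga
Ifit3: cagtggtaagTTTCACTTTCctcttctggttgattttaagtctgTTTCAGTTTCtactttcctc
Ifit3b: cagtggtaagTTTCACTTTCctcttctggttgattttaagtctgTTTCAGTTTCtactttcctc
Rsad2: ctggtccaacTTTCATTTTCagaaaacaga
Oas1a: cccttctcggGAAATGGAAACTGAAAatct
Bst2: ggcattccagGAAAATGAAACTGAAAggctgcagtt
Igtp: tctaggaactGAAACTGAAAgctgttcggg
Gbp7: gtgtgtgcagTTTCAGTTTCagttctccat
Stat2: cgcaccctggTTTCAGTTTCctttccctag
The Ifit3 and Ifit3b stretches have the same letters over 64 bases. Ifit2, the measured member with the highest ratio in KO, had an entry and no match in this window. A match is a description of letters and not a measured binding site. Members with these letters had both low ratios in KO (Isg15, Ifit1, Rsad2, Igtp) and ratios near 0 (Stat2, Gbp7), as given below. Not every member with a match is shown. Among those left out, Cxcl10, under the minimum of 1 CPM, had a match at -213 from the start. Its log2 ratio was above 0, at 1.52 (0.97 to 2.10).

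Over all cells the members were mostly lower in the KO library, and Isg15 most of all. Of the 34 members with a row, 31 were measured (at least 1 CPM as the mean of both libraries). Among these, 27 had a log2 ratio of KO over WT below 0, with a median of -0.26, whereas the median over all 11901 measured genes was 0.063. Of these 11901 genes, 4425 were below 0. By the fold used here, 12 members were at least 20% lower in KO, against 4.54% of all measured genes, and 0 were at least 25% higher, against 10.4% of all measured genes. These are counts by size of fold between 2 libraries and carry no p-value. The members' UMIs were unevenly spread: Ifitm3, Ly6e and Ifi203 made up 58.3% of the members' summed level in WT.

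Among the transcription factors, Irf7, which amplifies the type I response, had 8.08 CPM in WT against 5.98 CPM in KO, with a log2 ratio of -0.43 (-0.58 to -0.29). Irf9, the DNA-binding part of the complex, had 28.2 and 25.4 CPM, a ratio of -0.15 (-0.22 to -0.081). Stat2, its partner, had 7.52 and 7.91 CPM, and the interval of its ratio of 0.071 included 0 (-0.062 to 0.20). Of these 3 genes, only Irf7 was past the fold of 20% lower, against 4.54% of all measured genes.

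In the IFIT and ISG15 group, Isg15, a ubiquitin-like protein attached to other proteins in interferon-treated cells, had 31.8 CPM in WT against 16.3 CPM in KO. Its log2 ratio of -0.96 (-1.04 to -0.88) was the lowest of the measured members. Ifit1, which binds foreign RNA caps, had 6.24 and 4.09 CPM, a ratio of -0.61 (-0.78 to -0.44). Usp18, the protease that removes Isg15 from proteins and also restrains the receptor, had 3.90 and 3.10 CPM, a ratio of -0.33. Ifit2, a relative of Ifit1, had 5.06 CPM in WT against 5.88 CPM in KO, and its ratio of 0.22 (0.061 to 0.38) was the highest of the measured members. Herc6, a ligase that attaches Isg15 in mice, had 13.5 and 13.7 CPM, a ratio of 0.019. The group therefore held both ends of the members' range, with neighbours Ifit1 and Ifit2 of chromosome 19 on opposite sides of 0. Ifit3 (59 and 25 UMIs) and Ifit3b (14 and 11 UMIs) were under the minimum, with ratios of -0.80 (-1.54 to -0.10) and 0.091 (-1.19 to 1.34). As near-identical copies they may have reads that fit both genes. How such reads were counted was not examined, so both levels are uncertain.

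All 13 measured genes of RNA sensing and virus restriction had ratios below 0, against 4425 of all 11901 measured genes. Past the fold of 20% lower were 5 of them, against 4.54% of all measured genes. Rtp4, a chaperone, had 28.1 CPM in WT against 18.7 CPM in KO, with a ratio of -0.59 (-0.67 to -0.51). Zbp1, a sensor of Z-form nucleic acid, had 1.41 and 0.89 CPM, a ratio of -0.66 (-1.03 to -0.30). Rsad2 (viperin), which makes a chain-terminating nucleotide, had 6.83 and 4.65 CPM, a ratio of -0.56. In the oligoadenylate synthetase family, which senses double-stranded RNA, Oas2 had 2.72 and 1.95 CPM (-0.48), Oasl2 14.4 and 10.4 CPM (-0.47) and Oas1a 10.0 and 8.93 CPM (-0.16). Thus the family member with the lowest UMI count of the 3, Oas2 (384 and 203 UMIs), and the one with the highest, Oasl2 (2030 and 1082), had like ratios. The other 7 ranged from Parp14, an ADP-ribosyltransferase with 21.2 and 17.7 CPM (-0.27), to Dtx3l, a ubiquitin ligase with 22.1 and 21.5 CPM (-0.042). Between them lay Samhd1, which breaks down nucleotides, with 64.1 and 58.6 CPM (-0.13), and the PYHIN gene Ifi203 with 186 and 162 CPM (-0.20). Trim30a had 30.4 and 26.8 CPM (-0.18), Xaf1 25.1 and 21.8 CPM (-0.20) and Ifi27l2a 21.9 and 19.1 CPM (-0.20). None of these 7 was past the fold.

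Of the membrane proteins, Ifitm3, which blocks fusion of viruses in endosomes, had 473 CPM in WT against 345 CPM in KO, with a ratio of -0.45 (-0.47 to -0.44). Bst2 (tetherin), which holds budding virus at the cell surface, had 158 and 127 CPM, a ratio of -0.32, just short of 20% lower. Ly6e, a lipid-anchored relative of Sca1, had 197 CPM in WT against 211 CPM in KO, with a ratio of 0.10 (0.077 to 0.13). The members with the most and the next most UMIs in WT thus lay on opposite sides of 0.

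All 7 interferon-inducible GTPases had ratios below 0, against 4425 of all 11901 measured genes. Iigp1 had 246 UMIs in WT and 118 UMIs in KO (1.74 and 1.13 CPM), a ratio of -0.62 (-0.95 to -0.30), and Igtp had 6.77 and 4.94 CPM, a ratio of -0.45. Gbp2 had 4.39 and 3.67 CPM (-0.26), Gbp3 4.41 and 3.70 CPM (-0.25) and Irgm1 25.7 and 21.5 CPM (-0.26). Ifi47 had 25 and 22.1 CPM (-0.18) and Gbp7 33.7 and 30.6 CPM (-0.14). Iigp1 and Igtp were thus the only GTPases past the fold of 20% lower, against 4.54% of all measured genes. The chemokine gene Cxcl10 had 41 UMIs in WT and 87 UMIs in KO and was under the minimum of 1 CPM; its ratio was 1.52 (0.97 to 2.10), against the direction of most members, and 50% of its UMIs came from 4 WT and 6 KO cells.

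**Figure D1:**
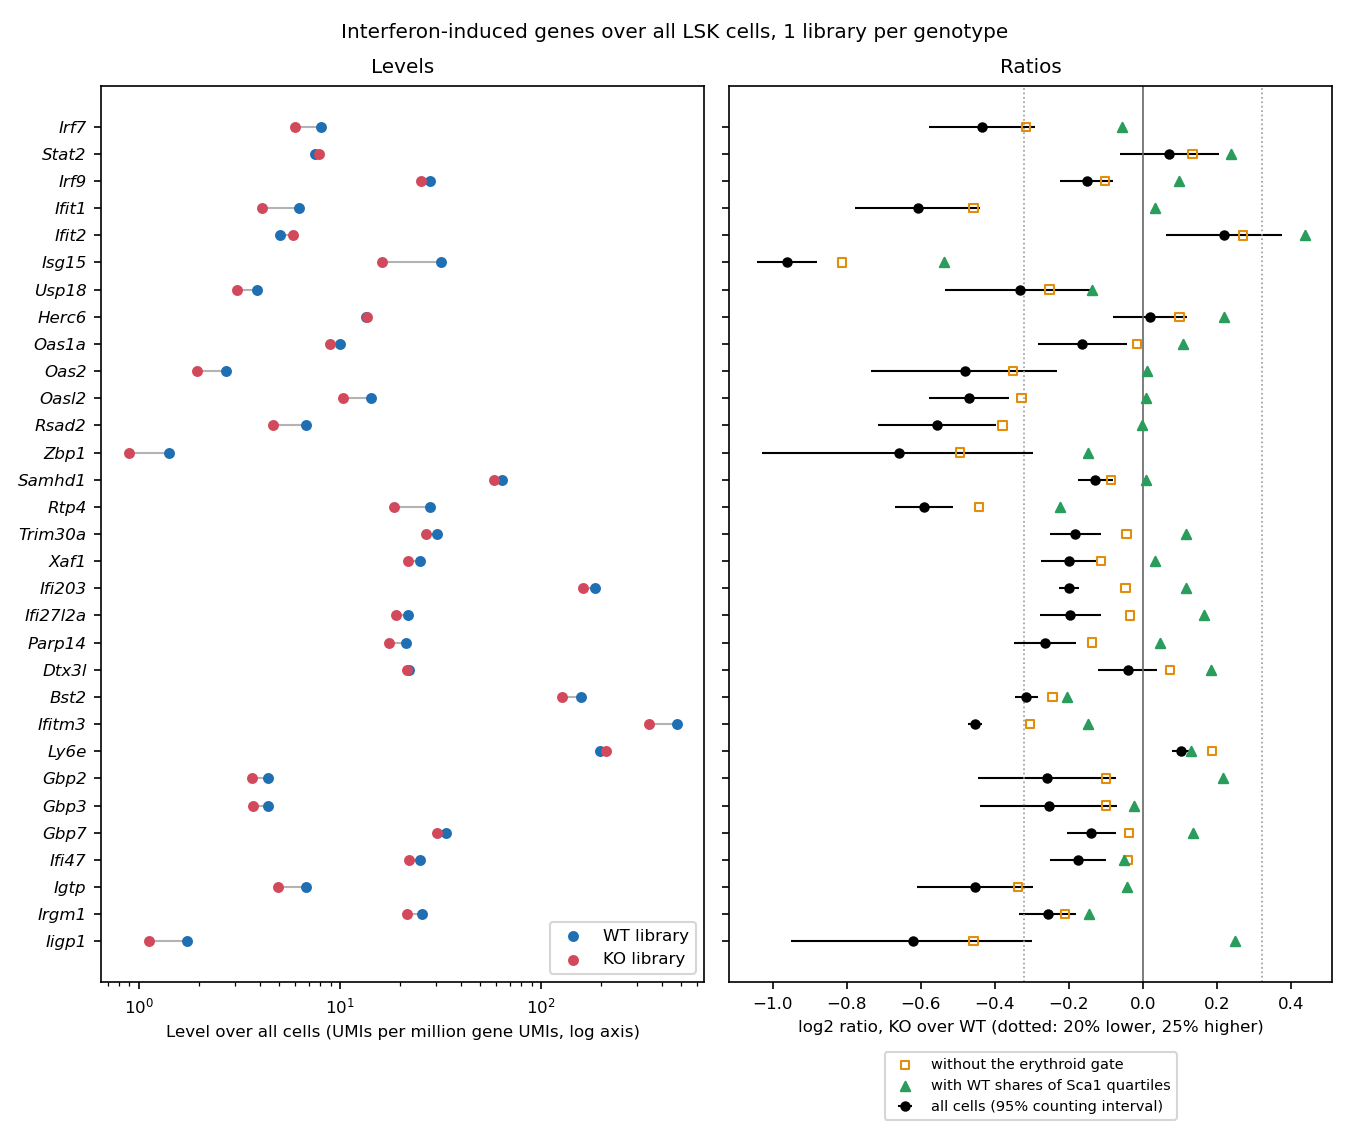
Left, level of each of the 31 measured members over all cells of the WT (blue) and KO (red) library, on a log axis of CPM; right, log2 ratio of KO over WT for all cells with 95% counting intervals (black), without the erythroid gate (orange squares) and with the libraries given the WT shares of Sca1 quartiles (green triangles). Isg15 is left of the dotted line at 20% lower in each of the 3 calculations, whereas most green triangles lie near or right of 0.

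Genes that sense or transmit interferon had a median nearer to 0, and those that make it were hardly detected. Of 11 ligand genes, 10 had 0 UMIs in both libraries, which allows up to 0.021 CPM in WT against 0.029 CPM in KO, and Ifnk had 2 and 3 UMIs. Of 49 pathway genes listed, 34 were measured, with a median ratio of -0.037. Those at least 20% lower numbered 3, against 4.54% of all measured genes: Irf5 at -0.33, Dhx58, a helicase of RNA sensing, at -0.55, and Socs1, an inhibitor of Jak kinases, at -0.36. The only one at least 25% higher, against 10.4% of all measured genes, was Socs3, another such inhibitor, with 1.43 CPM in WT against 2.16 CPM in KO, with a ratio of 0.59 (0.31 to 0.88). None of the 8 measured receptor and kinase genes was past either fold, with Ifnar1 at -0.12, Ifnar2 at 0.15, Ifngr1 at 0.23 and Jak1 at 0.16.

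The erythroid share of the cells differed between the libraries, and the members were low in those cells. Lineage gates were the top 5% of all cells (1% for the mast or basophil and the MHC II or dendritic gate) by a marker score; each is a range of a score and not a cell type, and 169 cells lay within 10% of the erythroid limit, beside 400 cells in that gate. The erythroid gate held 169 WT cells (3.16%) and 231 KO cells (8.63%), which carried 7.10% and 16.7% of gene UMIs, with medians of 58102 and 74401 UMIs per cell. In WT, members in the erythroid gate had a median log2 ratio of -2.59 to cells in no gate, and 29 of 30 were at least 20% lower, against 50.6% of all genes. In KO the median was -2.61, and 28 of 29 were at least 20% lower, against 48.2% of all genes. Genes with no UMI in the gate had no ratio and were left out, members such as Oas2 in WT included. Isg15, for example, had 4.08 CPM in erythroid-gate cells and 33.5 CPM in cells of no gate in WT, and 1.49 and 20.2 CPM in KO.

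The other lineage gates each had medians of the same sign in both libraries. In the lymphoid gate the members' median over cells of no gate was 0.61 in WT and 0.39 in KO, and 22 of 31 (against 21.3% of all genes) and 18 of 31 (20%) were at least 25% higher. Ifi27l2a, a small mitochondrial and nuclear envelope protein, stood at 93.3 CPM in lymphoid-gate cells against 19.3 CPM in cells of no gate in WT, and at 74.2 against 18.6 CPM in KO. In the MHC II or dendritic gate the medians were 0.62 in WT and 0.79 in KO, with 17 of 29 (against 22.5% of all genes) and 18 of 28 (22.9%) at least 25% higher. There Irf7, which is constitutive in plasmacytoid dendritic cells, reached 58.8 CPM in WT against 42.2 CPM in KO, and Ly6e 976 and 1035 CPM. Other members were lower there: 6 of 29 in WT (against 46.1% of all genes) and 5 of 28 in KO (45.7%) were at least 20% lower, among them Gbp7 at 4.39 against 36.4 CPM, Rtp4 at 6.15 (7 UMIs) against 31.5 CPM and Ifi47 at 10.5 against 26.8 CPM in WT. The members' medians were below those of cells of no gate in the other 3 gates. The megakaryocyte gate had medians of -0.50 in WT and -0.80 in KO, with 22 of 31 (against 17.9% of all genes) and 23 of 30 (22.3%) at least 20% lower. The granulocyte-monocyte gate had -0.45 and -0.45, with 18 of 31 (32.8%) and 19 of 31 (30.7%) lower, and the mast or basophil gate -0.73 and -0.99, with 13 of 19 (47.6%) and 21 of 25 (51.0%) lower. Genes with no UMI in a gate had no ratio and entered none of these medians, counts or shares. Isg15 in the WT mast or basophil gate was one such member. The values for small gates therefore leave out the lowest members.

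**Figure D2:**
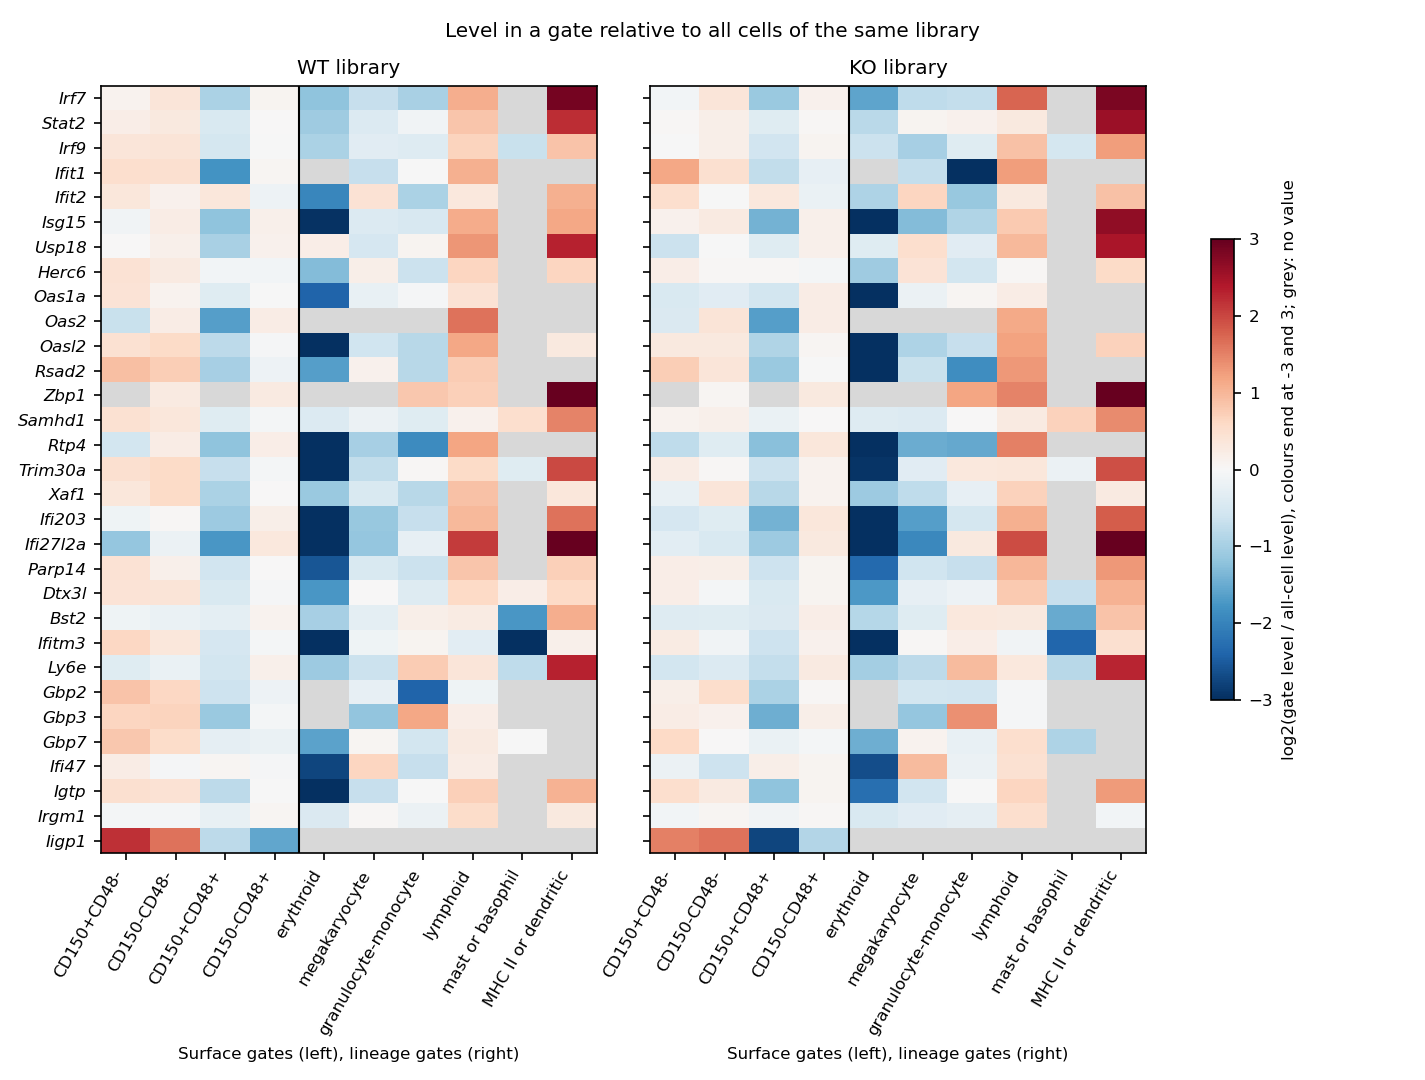
Level of each measured member in a gate relative to all cells of the same library (log2, red higher, blue lower, colours end at -3 and 3), for the 4 surface gates and 6 lineage gates in the WT and KO library; grey marks fewer than 20 UMIs in both libraries together or no UMI in that library. The erythroid column is mostly blue and the lymphoid column mostly red in both libraries, with lymphoid medians over ungated cells of 0.61 in WT and 0.39 in KO.

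The members' median difference between the libraries was nearer to 0 in cells of no lineage gate than over all cells when the gates were set on both libraries pooled, whereas Isg15 was lower in KO there and in 4 of the 6 lineage gates. In the 4391 WT and 1909 KO cells of no gate, the members' median ratio of KO over WT was -0.10, and 4 of 31 were at least 20% lower, against 2.29% of all genes, and 1 was at least 25% higher, against 10.4%. With gates set in each library separately this median was -0.25, close to that over all cells. In the erythroid gate the median was -0.087, with 7 of 25 members lower (against 4.55% of all genes) and 3 higher (22.6%). In the granulocyte-monocyte gate it was -0.076, with 7 of 29 lower (7.5%) and 4 higher (22.3%). The lymphoid gate had -0.26, with 13 of 30 lower (9.8%) and 0 higher (18.5%), and the megakaryocyte gate -0.37, with 16 of 28 lower (11.7%) and 3 higher (21.2%). The smallest gates gave few values: 2 of 8 members were lower (20.9%) and 1 higher (25.3%) in the mast or basophil gate, and 5 of 21 lower (18%) and 3 higher (26.3%) in the MHC II or dendritic gate. Isg15 had ratios of -0.73 (-0.82 to -0.64) in cells of no gate, -1.29 (-1.60 to -0.99) in the lymphoid gate, -1.40 (-1.81 to -1.01) in the granulocyte-monocyte gate and -1.83 (-2.43 to -1.27) in the megakaryocyte gate. In the lymphoid gate that was 68.4 CPM in WT against 28.0 CPM in KO. An exception was the MHC II or dendritic gate of 52 WT and 26 KO cells, with 71.1 and 102 CPM, where 1 KO cell gave 31 of the 85 UMIs. In the mast or basophil gate Isg15 had 0 and 3 UMIs, too few for a ratio. Ifi203, by contrast, had 201 CPM in WT against 202 CPM in KO in cells of no gate, and Irf9 29.3 and 27.8 CPM.

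Surface gates followed CD150 and CD48, the pair used to enrich for stem cells (CD150+CD48-) and multipotent progenitors. Of all cells, 5.34% lay within 0.25 log2 units of the CD150 limit and 6.47% of the CD48 limit. In CD150+CD48- cells (617 WT, 279 KO) the members' median ratio was -0.55. There 21 of 30 were at least 20% lower, against 22.0% of all genes, and 2 at least 25% higher, against 16.2%. The direction depended on the limits: with limits at the 85th percentile of CD150 and the 15th of CD48 the median was 0.045, and with each cell weighted equally it was -0.22. In CD150-CD48- cells (604 and 358) it was -0.50, with 23 of 31 lower, against 20%, and 0 higher, against 13.9%. In CD150+CD48+ cells (649 and 369) it was -0.26, with 14 of 30 lower, against 9.87%, and 2 higher, against 13.6%. In the largest gate, CD150-CD48+ (3475 and 1670), it was -0.089, with 9 of 31 lower, against 2.48%, and 0 higher, against 11.9%.

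The erythroid-gate cells were unevenly spread over these surface gates. In CD150+CD48- they made up 3.73% of WT cells and 17.9% of KO cells, and 11.8% and 39.1% of gene UMIs. In CD150-CD48- they were 10.1% and 25.4% of cells, and 27.9% and 50.2% of UMIs. Without them, an alternative added after the data were seen, the medians were -0.076 in CD150+CD48- (7 of 30 lower, against 8.21% of all genes), -0.12 in CD150-CD48- (8 of 31 lower, against 8.38%), -0.20 in CD150+CD48+ and -0.055 in CD150-CD48+. Isg15 in CD150+CD48- cells had 29.5 CPM in WT against 17.8 CPM in KO with them, and 30.2 and 28.1 CPM without. In CD150-CD48- cells it had 36.9 and 19.6 CPM with them, and 50.9 and 38.4 CPM without. Over all cells the members' median without the erythroid gate was -0.11, with 9 at least 20% lower, against 2.37% of all genes.

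The CD150+CD48- cells with CD201 above the median of that gate, a surface protein of fetal stem cells, had a members' median of -0.85 (279 WT and 169 KO cells). They held 1 erythroid-gate cell in WT and 33 in KO, and without these the median was -0.31. The CD201 limit was set on both libraries pooled. Over all cells the CD201 tag was higher in KO, with a median of -2.47 against -3.43 in WT. The split may therefore not select like cells in the 2 libraries. In this split Ifitm3 had 954 CPM in WT against 413 CPM in KO, erythroid-gate cells included. Iigp1 was concentrated in CD48- cells of both libraries: in WT it had 8.0 CPM in CD150+CD48- and 0.59 CPM in CD150-CD48+ cells, and in KO 3.21 and 0.61 CPM. Of all measured members, 18 of 31 were at least 25% higher in CD150+CD48- than in CD150-CD48+ cells in WT, against 33.8% of all genes, and 5 at least 20% lower, against 10.5%. In KO 6 were higher, against 23.6%, and 10 lower, against 15.1%, with erythroid-gate cells included.

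The Sca1 tag, read as log2 of its UMIs less the cell's mean over the 6 tags, had a median of 0.40 in WT and -0.30 in KO. Ly6a RNA, which encodes Sca1, had 12.8 and 9.60 CPM, a ratio of -0.42 (-0.53 to -0.31). In quartiles of the Sca1 tag over both libraries, quartile 1 (lowest) held 954 WT and 1051 KO cells, quartile 2 1329 and 676, quartile 3 1471 and 534, and quartile 4 1591 and 415. KO cells thus lay mostly in the low quartiles and WT cells in the high ones. As the tag is read relative to the mean of the 6 tags, this also depends on the other tags. Among these, CD201 was higher in KO (median -2.47 against -3.43 in WT) and CD117 lower (2.17 against 2.51).

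Levels of the members were higher at higher Sca1 in both libraries. In WT all 31 measured members were higher in quartile 4 than in quartile 1, with a median log2 ratio of 1.29, and 30 were at least 25% higher, against 40.2% of all genes. In KO all 31 were higher again, with a median of 1.47, and 30 were at least 25% higher, against 42.4% of all genes. Isg15 went from 14.1 to 50.0 CPM in WT and from 8.50 to 38.1 CPM in KO. Ifit1 went from 1.30 to 11 CPM in WT and from 1.58 to 15 CPM in KO. In KO, 47 of its 427 UMIs came from 1 cell, whose quartile is not given here. Ifitm3 went from 285 to 696 CPM in WT and from 238 to 658 CPM in KO. The exception was Ly6e, with 178 and 216 CPM in WT and 204 and 220 CPM in KO, which stayed under 25% higher in each library.

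Within a Sca1 quartile the 2 libraries lay close together for most members. The median ratio of KO over WT was -0.069 in quartile 1, -0.080 in quartile 2, 0.0039 in quartile 3 and 0.11 in quartile 4, against 0.10, 0.099, 0.11 and 0.11 over all genes. Members at least 20% lower numbered 5 (against 3.04% of all genes), 7 (4.19%), 1 (2.83%) and 1 (3.95%) of 31 from quartile 1 to 4. Those at least 25% higher numbered 1 (14.3%), 1 (15.8%), 4 (19.6%) and 3 (18.8%). Isg15 was at least 20% lower in each quartile, with ratios of -0.73 (-0.92 to -0.53), -0.56 (-0.73 to -0.40), -0.64 (-0.81 to -0.49) and -0.39 (-0.55 to -0.24). Rtp4 had -0.22, -0.34, -0.29 and -0.10 from quartile 1 to 4, and Bst2 -0.24, -0.24, -0.18 and -0.18. Irf9 and Ifi203 were at 0.18 and 0.17 in quartile 4.

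When the KO library was given the WT shares of the 4 Sca1 quartiles, the members' median over all cells was 0.031, with 1 member at least 20% lower (Isg15, -0.54), against 1.11% of all genes, and 1 at least 25% higher (Ifit2, 0.44), against 14.2%. This depended on how the tag was read. With Sca1 as its share of all 6 tags, an alternative added after the data were seen, the median was -0.10, and Isg15 (-0.75), Rtp4 (-0.46) and Zbp1 (-0.45) were at least 20% lower, against 2.05% of all genes. With quartiles set in each library separately, the median in quartile 2 was -0.42. Over the 17 alternative calculations run for each member, Isg15 stayed at least 20% lower in each, between -1.02 and -0.50. Because Sca1 is itself interferon-inducible and was gated in the sort, fewer cells with a response and less response per cell at a given Sca1 level cannot be told apart from these values.

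**Figure D3:**
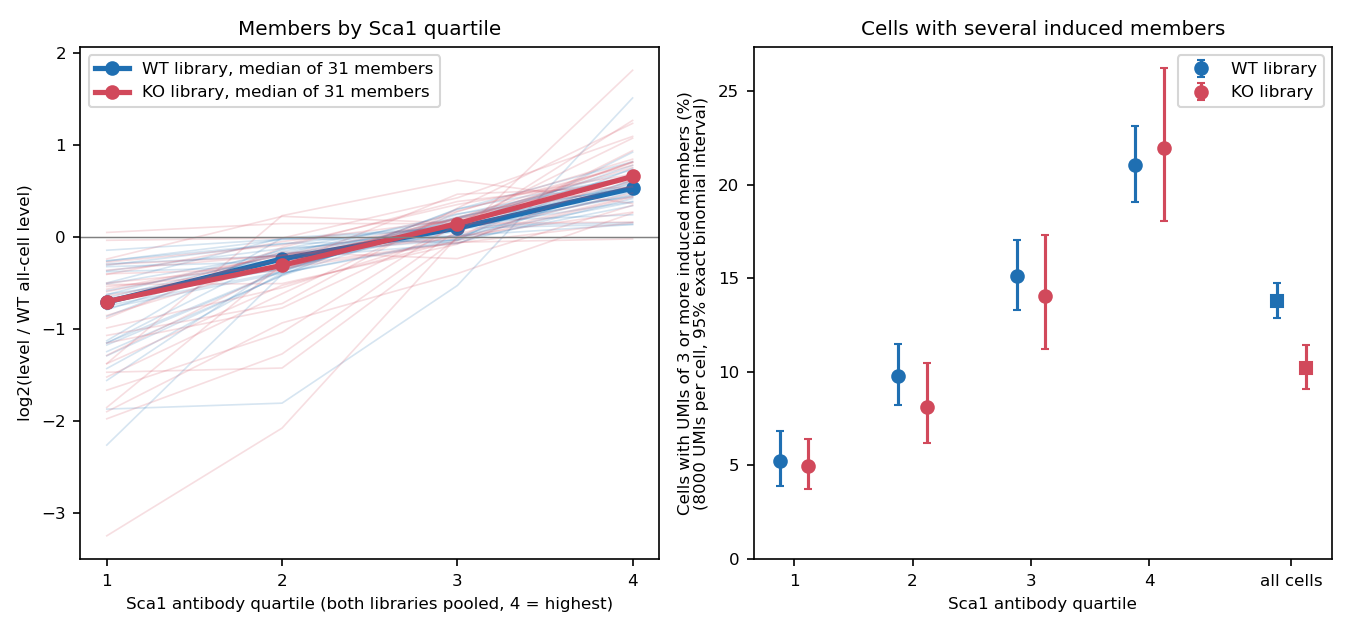
Left, log2 level of the 31 measured members relative to the WT level over all cells, by Sca1 antibody quartile, with thin lines for members and thick lines for medians in WT (blue) and KO (red); right, percent of cells with UMIs of 3 or more induced members after thinning to 8000 UMIs, with 95% exact binomial intervals. The medians climb from quartile 1 to 4 in both libraries, and the share of cells in quartile 4 is 21.1% in WT and 21.9% in KO.

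Part of the members' UMIs sat in few cells. This is described by the fewest cells that hold 50% of a member's UMIs. For Ifitm3 these were 1235 WT cells (23.1%) and 555 KO cells (20.7%), and for Samhd1 929 and 481 cells. For Isg15 they were 309 WT cells (5.78%) and 108 KO cells (4.04%), for Ifi27l2a 150 and 44 cells, and for Ifit1 112 cells (2.10%) and 35 cells (1.31%). Iigp1 reached 50% in 38 and 11 cells, and Cxcl10 in 4 and 6 cells. The UMIs of Ifit1, Isg15 and Ifi27l2a thus lay in a smaller share of cells than those of Ifitm3 and Samhd1, which also have more UMIs.

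Single cells set some of the low counts. In KO, 1 CD150+CD48- cell with 10344 gene UMIs held 47 of the 427 Ifit1 UMIs (11%), and it also had the most Ifit2 (6 UMIs) and Ifit3 (4 UMIs). Without that gene's 5 top cells of each library the Ifit1 ratio was -0.79 instead of -0.61. Another KO cell, of the CD150-CD48- gate with 18871 gene UMIs, held 23 of the 118 Iigp1 UMIs (19.5%) and had the most Parp14 and Gbp2, and the Iigp1 ratio was -1.10 without its 5 top cells in each library. In WT, 1 cell with 45131 gene UMIs in the granulocyte-monocyte gate had UMIs of 12 induced members. It was the top cell for Isg15 (34 UMIs), Ifit1 (30), Rsad2 (19), Cxcl10 (15 of 41), Parp14 (14), Ifi47 (11), Oasl2 (10), Dtx3l (10) and Igtp (7). The Isg15 ratio was -1.02 without its 5 top cells in each library.

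**Figure D4:**
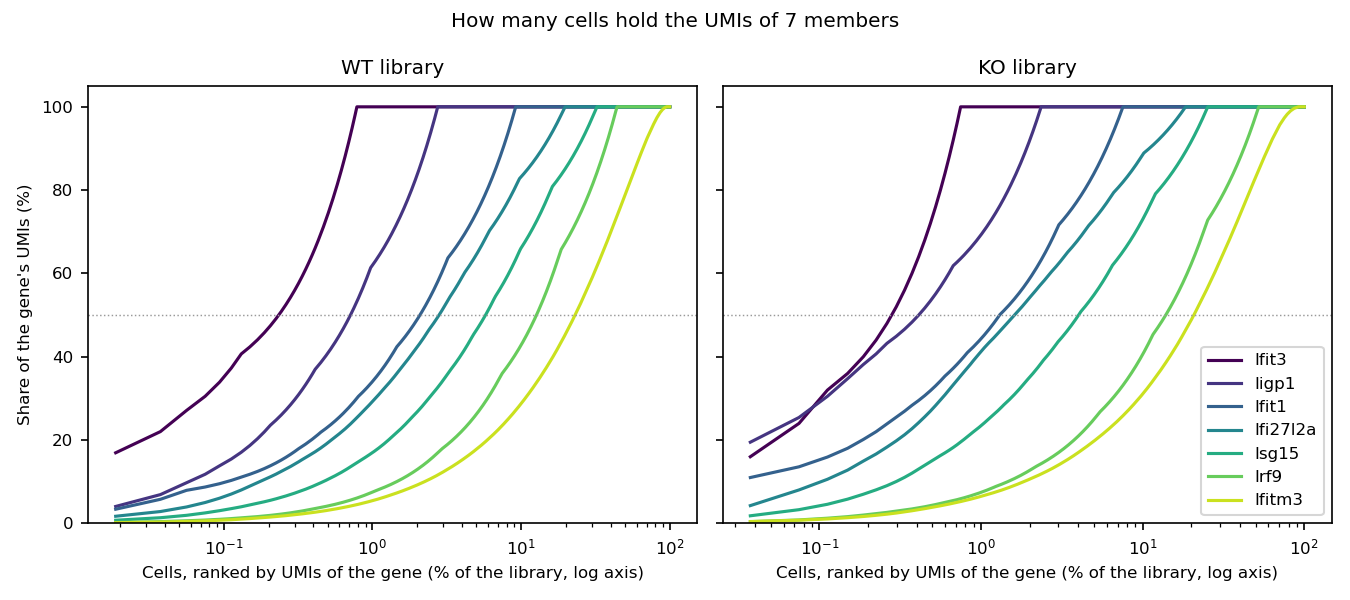
Share of the UMIs of 7 members (vertical axis, percent) held by the cells with most of them (horizontal axis, percent of the library's cells, log axis), in WT and KO; the dotted line marks 50%. Ifit1 crosses the line at 2.10% of WT cells and 1.31% of KO cells, and Ifitm3 at 23.1% and 20.7%.

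Cells with several induced members at once were counted after each cell was thinned to 8000 UMIs, which every cell reached. The count was over 16 members of the type I set, among them Isg15, Usp18, Rsad2, Rtp4, Irf7 and the Ifit and Oas genes. UMIs of at least 3 of these were found in 737 of 5345 WT cells (13.8%, exact binomial interval 12.9 to 14.7) and in 273 of 2676 KO cells (10.2%, 9.08 to 11.4). Without thinning the shares were 38.7% and 40.2%, an order opposite to the thinned one, at median depths of 22734 and 34187.5 UMIs. In the erythroid gate the thinned shares were 0.59% (1 of 169 cells) and 0.87% (2 of 231). In the lymphoid gate they were 30.6% (24.8 to 36.8) and 20.7% (14.5 to 28.0).

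By Sca1 quartile the thinned shares were 5.24% in WT and 4.95% in KO in quartile 1, 9.78% and 8.14% in quartile 2, 15.1% and 14.0% in quartile 3, and 21.1% and 21.9% in quartile 4. In each quartile the intervals of both libraries overlapped, which does not show that the shares were alike. Cells with at least 3 induced members had a median Sca1 tag of 0.92 in WT and 0.42 in KO, against 0.30 and -0.37 in the other cells.

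The 18 measured members not used to choose these cells were higher in them than in the other cells, 18 of 18 in each library, with a median log2 ratio of 0.99 in WT and 1.16 in KO. Iigp1 had 13.6 CPM against 1.03 CPM in WT and 15.6 against 0.73 CPM in KO. Parp14 had 58.0 against 19.3 CPM in WT, and Irf9 62.1 against 27.3 CPM. Ly6e had the smallest ratio in each library, at 0.28. Among genes that are not members, Ly6a had a ratio of 1.64 in WT and 1.87 in KO, whereas Ifngr1 was at 0.037 in WT with an interval that included 0 (-0.15 to 0.22). No share over all genes was computed for this contrast, so 18 of 18 has no background here. The chosen cells also had a higher Sca1 tag and fewer UMIs before thinning. Their medians were 19077 against 23484.5 UMIs in WT and 25118 against 35355 in KO. Whether such differences in make-up account for the ratios was not tested.

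Free RNA was described by barcodes with 100 to 300 UMIs, taken to hold no cell. There the members' median ratio of KO over WT was -0.56, against -0.057 over all genes. Isg15 had 17.6 CPM in these barcodes in WT and 9.40 CPM in KO, with a ratio of -0.91, near its ratio in cells. When this profile was subtracted at 20% of each library's cell UMIs, 9 members were at least 20% lower, against 4.35% of all genes.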

How the data were processed

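Per the file headers, Cell Ranger wrote the deposited matrices, whose values are raw counts: UMIs of each gene or antibody tag in each barcode. Version 4.0.6, build mm10, Seurat and DESeq are named in the submitters' processing notes; the deposited counts are whole numbers. RNA and antibody tags of each genotype's single library make up the 4 samples; 20000 cells were sorted and 10000 loaded, per the labels. Barcodes were kept as cells at 8178 gene UMIs in WT and 9992 in KO (10% of the 99th percentile among the richest 6000 barcodes), if they had 500 genes and no more than 10% mitochondrial UMIs. Total gene UMIs over cells were 141419013 in WT and 104358292 in KO. Scrublet (scanpy 1.11.5) marked 0.26% of KO cells and had not worked.

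UMIs were summed over cells per library or gate and given as CPM. Each ratio has a 95% interval from the exact binomial distribution of its UMIs given their sum, and each share a Clopper-Pearson interval (scipy 1.17.1). Only the ratio intervals were checked, on simulated Poisson counts. Such counts lack the clumping of UMIs in single cells, so the check does not show coverage in these data. Called lower or higher means a ratio of at most 0.8 or its inverse. Ratios in a gate needed 20 UMIs in both libraries together and a UMI in each. For a gate against other cells of its library, the 20 UMIs were counted over both groups, and a UMI was needed in each. Surface limits were where 2 Gaussian components crossed (scikit-learn 1.9.0), in both libraries pooled. Cells in several lineage gates (49) went to the gate of highest rank. Members, gene lists and marker lists were chosen with earlier results of these data known; all 35 members are accounted for, members with at least 1 CPM are given with levels and ratios, and pathway genes were to be named where past the fold; receptor and kinase genes were named beyond this, after their values were seen. Levels are not scaled by transcript length. Promoters matched 26 of 35 members by symbol. Alternatives covered scaling, cell limits, depth, top cells, free RNA, doublet scores, gates and make-up.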

Additional observations from a re-analysis of the deposited data

Results flagged for a closer look

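A few members were at least 20% lower in KO in one gate and at least 25% higher in another, with both counting intervals off 0; these differences between gates were not tested. Gbp2 had a log2 ratio of -0.43 in Sca1 quartile 2 and 0.46 in quartile 4. Ifit1 had -0.87 in quartile 2 and 0.45 in quartile 4. Of its 427 UMIs in KO, 47 came from 1 cell, whose Sca1 quartile is not given here. Ifi27l2a had -1.93 in the erythroid gate (22 and 10 UMIs) and 0.36 in the granulocyte-monocyte gate, where 1 KO cell held 85 of 220 UMIs. It also had -0.47 in CD150-CD48- cells and 0.63 in CD150+CD48- cells, and the same KO cell lay in the latter gate. Ifitm3 had -0.40 in the erythroid gate and 2.49 in the mast or basophil gate, from 6 UMIs in WT and 45 in KO. Isg15 had -1.83 in the megakaryocyte gate and 0.53 in the MHC II or dendritic gate. Xaf1 had -0.50 in the megakaryocyte gate and 0.38 in the granulocyte-monocyte gate.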

How the results depend on the processing

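No paired analysis was possible because there was 1 library per genotype. The members' median over all cells (-0.26) was -0.15 with cells thinned to 8000 UMIs, -0.11 with WT shares of the lineage gates, -0.11 without the erythroid gate, 0.031 with WT shares of Sca1 quartiles, -0.10 with Sca1 as a share of all tags, 0.056 with Sca1 deciles and 0.090 with Sca1 quartiles by lineage gate. The 12 members at least 20% lower became 3 at a minimum of 20 CPM (15 members), 7 with lineage shares, 3 with Sca1 as tag share, and 1 with Sca1 quartiles, 1 with deciles and 1 with quartiles by lineage gate. The 0 at least 25% higher became 1 with any UMI, 1 at 20% free RNA, 1 with lineage shares, 1 with Sca1 quartiles, 1 with tag share, 2 with deciles and 1 with quartiles by lineage gate. In CD150+CD48- cells the median was 0.045 with limits at the 85th and 15th percentiles, -0.076 without the erythroid gate and -0.22 with each cell weighted equally. In CD150-CD48- cells it was -0.12 without the erythroid gate, and in CD150-CD48+ cells -0.24 with the percentile limits. In cells of no lineage gate it was -0.25 with gates set per library. With Sca1 quartiles per library the medians in quartiles 2, 3 and 4 were -0.42, -0.27 and -0.088, and with Sca1 as tag share those in quartiles 2 and 3 were -0.26 and -0.36. The difference in cells with several induced members was -3.59 percentage points, -5.79 for at least 2 members and -1.78 for at least 4.

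With Sca1 quartiles, deciles and quartiles by lineage gate, in that order, Ifit1 was at 0.031, 0.072 and 0.098, Oas2 at 0.012, 0.019 and 0.075, Oasl2 at 0.0076, 0.027 and 0.062, and Iigp1 at 0.25, 0.35 and 0.28. Rsad2 was at 0.022 with deciles and 0.090 with quartiles by lineage gate, Igtp at 0.00021 with the latter, and Usp18 at 0.075 when cells were thinned. The causes were not tested. The calculations by Sca1 decile, by tag share and by lineage within Sca1, those without the erythroid gate and those with equally weighted cells were chosen after seeing the data. With 1 library per genotype, no interval here covers variation between pools, and Ifit3, Ifit3b and Cxcl10, under the minimum of 1 CPM, entered no median or count at that minimum.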
